A study of Mus musculus with 8 samples.

Results

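The genes described here are 9 genes known from Schwann cell precursors, the embryonic glial cells of growing nerves. They are *Sox10*, *Foxd3*, *Erbb3*, *Ednrb*, *Ngfr*, *Cdh19*, *L1cam*, *Fabp7* and *Gap43*. They were chosen by symbol, each symbol had 1 Ensembl identifier, and they make up 9 of the 15880 genes in the table. The study itself names *Sox10* and *Erbb3* for these samples. All 9 genes, and the gene lists used below, were chosen with earlier results of these data known. The direction of these genes is therefore not independent evidence. Schwann cell precursors arise from the neural crest and move along axons, whose neuregulin keeps them alive through ErbB3. They mature into immature and then into myelinating or non-myelinating Schwann cells, and they can also give rise to other neural crest derivatives such as melanocytes. Nerve fibres enter developing bone, and glial cells of this lineage accompany them.

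Stroma was sorted from digested bones of newborn (P1) pups that were heterozygous for *Nes-Gfp* on the strain background C57BL/6, with no other allele or treatment stated. CD45- CD31- Ter119- cells were divided by GFP and surface Pdgfrα into 4 populations (GFP+ Pdgfrα-, GFP+ Pdgfrα+, GFP- Pdgfrα+ and GFP- Pdgfrα-), with 2 libraries each. GFP is driven in these mice by regulatory elements of the rat nestin gene, so it reports the transgene. Each library came from a pool of 3 pups and from 15000 to 80000 cells, and it held 3221217 to 5302762 reads on genes.

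A value is the normalized signal of the deposited table, which is 0.5 added to a gene's reads, scaled to 1000000 reads of the library's effective size. A gene with 3 reads in a library had a value of 0.825 to 1.04, and a fold against a population with 0 reads in both libraries was computed against this floor of each library. Intervals and floors cover counting error only, since amplification copies molecules before they are read. Differences between populations were tested with limma on log2(value + 1), which understates the change of low genes, with p-values adjusted over all genes, and differences with an adjusted p-value up to 0.05 are called. With 2 libraries against 2, no exact permutation test can reach a p-value under 0.33. Each adjusted p-value therefore depends on the variance that limma estimates across genes. All 9 genes passed the authors' filter, which asks for more than 2 counts per 1000000 in 2 or more samples. The table was not cut by this rule, since only 14333 of its 15880 genes passed a filter at a value of 2 in 2 libraries. All 15880 had more than 2 reads in 2 libraries. A gene high in a single population can pass the authors' filter through that population alone. *Foxd3* did, since only its GFP+ Pdgfrα- libraries were over 2. Its differences from GFP+ Pdgfrα- cells are given as a description, and counts are also given over the other 8 genes. The sort was visible in the table. *Pdgfra* had values of 733 and 754 in GFP+ Pdgfrα+ and 839 and 794 in GFP- Pdgfrα+ cells, against 18.1 and 10.4 in GFP+ Pdgfrα- and 3.30 and 4.36 in GFP- Pdgfrα- cells. *Nes*, the mouse nestin gene, had values of 149 and 176 in GFP+ Pdgfrα-, 57.6 and 72.0 in GFP+ Pdgfrα+, 27.4 and 47.1 in GFP- Pdgfrα+ and 3.59 and 9.08 in GFP- Pdgfrα- cells. At equal Pdgfrα, its GFP+ libraries thus lay above its GFP- libraries, with a difference that was called between the Pdgfrα- populations (log2 4.58, adjusted p = 3.13e-07, limma) and not between the Pdgfrα+ populations (log2 0.82, adjusted p = 0.213, limma).

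By mean value, 7 of the 9 genes were highest in GFP+ Pdgfrα- cells, lower in GFP+ Pdgfrα+ cells and lowest in the GFP- populations. Between the GFP+ populations, 7 of the 9, or 6 of the 8 without *Foxd3*, were lower in GFP+ Pdgfrα+ cells (11.1% of all genes were called lower in this comparison) and 1, *Ngfr*, was higher (13.1% of all genes were called higher). *Gap43* was not called. The median log2 difference of the 9 genes, GFP+ Pdgfrα+ minus GFP+ Pdgfrα-, was -2.09 (-2.31 without *Foxd3*), against -0.02 over all genes. These are bulk libraries, in which fewer cells of a type and less RNA per cell cannot be told apart. Reads of mitochondrial genes took 24.2% and 22.2% of the GFP+ Pdgfrα- libraries and 13.0% and 13.7% of the GFP+ Pdgfrα+ libraries, and the part of this difference in the results was not tested.

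*Sox10*, a transcription factor that specifies peripheral glia and keeps them in that state, is ENSMUSG00000033006 and spans positions 78985343 to 78994920 of chromosome 15 (NCBIM37, minus strand, 4 exons). Its values were 83.2 and 85.8 in GFP+ Pdgfrα-, 13.4 and 9.34 in GFP+ Pdgfrα+, 0.126 and 1.04 in GFP- Pdgfrα+ and 0.431 and 1.30 in GFP- Pdgfrα- cells. Both GFP+ Pdgfrα- libraries lay above both GFP+ Pdgfrα+ libraries, these lay above all 4 GFP- libraries, and the GFP- populations overlapped. A mean of 84.5 ± 1.86 (SD, n = 2) for GFP+ Pdgfrα- cells stood against 11.4 ± 2.87 (SD, n = 2) for GFP+ Pdgfrα+ cells, a 7.43-fold difference. On the log2 scale GFP+ Pdgfrα+ cells were at -2.81 relative to GFP+ Pdgfrα- cells (standard error 0.41, adjusted p = 0.000428, limma). Of the GFP+ Pdgfrα- level 13.5% was found in GFP+ Pdgfrα+ cells, with 10.9% to 16.1% over the 4 pairs of libraries and an exact 95% interval of 10.5% to 16.9% from the reads. *Foxd3* (ENSMUSG00000067261; chromosome 4, 99322990 to 99325362, plus strand, 1 exon) encodes a forkhead factor of the early neural crest and shares 89 exon bases with *BX005053.1* on the same strand, so reads in these bases cannot be assigned to 1 of them. It was the lowest of the 7 genes that were lower in GFP+ Pdgfrα+ cells, with values of 7.41 and 4.24 in GFP+ Pdgfrα-, 1.24 and 0.144 in GFP+ Pdgfrα+, 0.378 and 0.148 in GFP- Pdgfrα+ and 0.144 and 0.118 in GFP- Pdgfrα- cells. The value of 1.24 stands for 4 reads, and the other GFP+ Pdgfrα+ library and both GFP- Pdgfrα- libraries had 0. The share found in GFP+ Pdgfrα+ cells was 11.9%, but it ran from 1.94% to 29.3% over the pairs of libraries, and leaving out replicate 2 of the GFP+ Pdgfrα+ cells gave 21.3%. The log2 difference was -2.05, and -3.73 with a pseudocount of 0. Its call in limma was lost with edgeR on the recovered reads (-3.26, adjusted p = 0.0547; range over the alternatives 0.00262 to 0.0547).

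*Erbb3* (ENSMUSG00000018166; chromosome 10, 128004579 to 128026708, minus strand, 28 exons) encodes the neuregulin receptor of Schwann cell precursors. Its values were 131 and 131 in GFP+ Pdgfrα-, 20.6 and 22.3 in GFP+ Pdgfrα+, 1.89 and 2.23 in GFP- Pdgfrα+ and 4.74 and 2.95 in GFP- Pdgfrα- cells. No pair of populations overlapped, and the GFP+ Pdgfrα- replicates lay closer together than for any other of the 9, with a mean ± SD of 131 ± 0.0686 (n = 2). The mean in GFP+ Pdgfrα+ cells was 21.4 ± 1.20 (SD, n = 2), which is 16.3% of the GFP+ Pdgfrα- level (15.7% to 17.0% over the pairs of libraries; exact 95% interval 13.6% to 19.3%). On the log2 scale the difference was -2.56 (standard error 0.28, adjusted p = 4.91e-05, limma). *Ednrb* (ENSMUSG00000022122; chromosome 14, 104213842 to 104243390, minus strand, 8 exons) encodes endothelin receptor B, which acts in neural crest cells, in precursors of glia and in melanoblasts. It had values of 174 and 176 in GFP+ Pdgfrα-, 32.7 and 26.6 in GFP+ Pdgfrα+, 1.39 and 1.63 in GFP- Pdgfrα+ and 2.15 and 12.1 in GFP- Pdgfrα- cells. The GFP- Pdgfrα- libraries stood apart from each other, with 7 and 51 reads, and the other populations were each closely paired. GFP+ Pdgfrα+ cells held 16.9% of the GFP+ Pdgfrα- level (15.1% to 18.8% over the pairs; exact 95% interval 14.5% to 19.5%), with a log2 difference of -2.53 (standard error 0.49, adjusted p = 0.00274, limma).

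*Cdh19* (ENSMUSG00000047216; chromosome 1, 112785772 to 112873949, minus strand, 12 exons) encodes a cadherin used as a marker of Schwann cell precursors. The values were 14.7 and 14.5 in GFP+ Pdgfrα-, 2.35 and 3.02 in GFP+ Pdgfrα+, 0.378 and 0.148 in GFP- Pdgfrα+ and 0.718 and 0.118 in GFP- Pdgfrα- cells. Both GFP+ populations were separate from each other and from the GFP- libraries, which held 3 reads of this gene in all. Of the GFP+ Pdgfrα- level, 18.4% was found in GFP+ Pdgfrα+ cells (16.0% to 20.8% over the pairs; exact 95% interval 10.02% to 28.9%). The log2 difference of -2.09 (standard error 0.39, adjusted p = 0.00220, limma) was not called with a pseudocount of 0 (adjusted p = 0.105; range over the alternatives 0.00195 to 0.105). *L1cam* (ENSMUSG00000031391; chromosome X, 71099117 to 71141444, minus strand, 30 exons) encodes an adhesion molecule of axons and non-myelinating glia, and 100 of its exon bases are shared with *Arhgap4* on the same strand, so reads there cannot be assigned to 1 of them. Values of 58.6 and 61.6 in GFP+ Pdgfrα- cells stood against 12.3 and 4.46 in GFP+ Pdgfrα+, 4.66 and 3.12 in GFP- Pdgfrα+ and 0.718 and 1.30 in GFP- Pdgfrα- cells. The Pdgfrα+ populations overlapped, and the other pairs of populations did not. The share found in GFP+ Pdgfrα+ cells was 13.9% (7.23% to 21.0% over the pairs; 7.41% without replicate 1 of these cells; exact 95% interval 10.4% to 18.2%), and the log2 difference was -2.84 (standard error 0.43, adjusted p = 0.000547, limma).

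*Fabp7* (ENSMUSG00000019874; chromosome 10, 57504687 to 57508256, plus strand, 4 exons) encodes a fatty acid binding protein of immature glia. It had values of 23.4 and 15.6 in GFP+ Pdgfrα-, 8.15 and 2.73 in GFP+ Pdgfrα+, 0.126 and 0.446 in GFP- Pdgfrα+ and 2.73 and 1.06 in GFP- Pdgfrα- cells. The GFP+ populations did not overlap, although the lower GFP+ Pdgfrα+ library was level with the higher GFP- Pdgfrα- library. At 27.9%, its share in GFP+ Pdgfrα+ cells was the highest of the 7 genes that were lower there, and it had the widest range upwards, from 11.7% to 52.3% over the pairs of libraries (14.0% without replicate 1 of the GFP+ Pdgfrα+ cells; exact 95% interval 18.7% to 39.4%). The log2 difference was -1.78 (standard error 0.50, adjusted p = 0.0224, limma). It was not called with a pseudocount of 0.1 or 0 (adjusted p = 0.0909 and 0.135), without either GFP+ Pdgfrα- library (0.169 without replicate 1 and 0.0634 without replicate 2) or without replicate 2 of the GFP+ Pdgfrα+ cells, where it was -1.14 (adjusted p = 0.173). Its adjusted p-values over the alternatives, all from limma or edgeR, ran from 0.00929 to 0.173.

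*Ngfr* and *Gap43* had another order of levels. *Ngfr* (ENSMUSG00000000120; chromosome 11, 95430132 to 95449049, minus strand, 6 exons) encodes the neurotrophin receptor p75, which is found on neural crest cells and immature glia and is also used to sort mesenchymal stromal cells. Its values were 94.6 and 109 in GFP+ Pdgfrα+, 59.1 and 49.5 in GFP- Pdgfrα+, 33.6 and 23.3 in GFP+ Pdgfrα- and 2.44 and 2.71 in GFP- Pdgfrα- cells. No populations overlapped, and the Pdgfrα+ libraries were the highest 4. The GFP+ Pdgfrα+ mean of 102 ± 10.5 (SD, n = 2) was 358% of the GFP+ Pdgfrα- level of 28.5 ± 7.32 (SD, n = 2), with 281% to 470% over the pairs of libraries. The log2 difference was 1.82 (standard error 0.23, adjusted p = 0.000151, limma). *Gap43* (ENSMUSG00000047261; chromosome 16, 42248555 to 42340764, minus strand, 4 exons) encodes a growth-associated protein of axons that precursors of Schwann cells also express. It was low throughout, with values of 1.58 and 2.70 in GFP+ Pdgfrα-, 5.94 and 3.88 in GFP+ Pdgfrα+, 11.2 and 5.49 in GFP- Pdgfrα+ and 0.144 and 0.118, or 0 reads, in GFP- Pdgfrα- cells. The GFP+ Pdgfrα+ libraries lay between the GFP+ Pdgfrα- libraries and, with overlap, the GFP- Pdgfrα+ libraries. Its level in GFP+ Pdgfrα+ cells was 229% of that in GFP+ Pdgfrα- cells (144% to 376% over the pairs; exact 95% interval 129% to 465%), and the log2 difference of 0.91 was not called (95% interval -0.04 to 1.87, adjusted p = 0.158, limma).

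**Figure D1:**
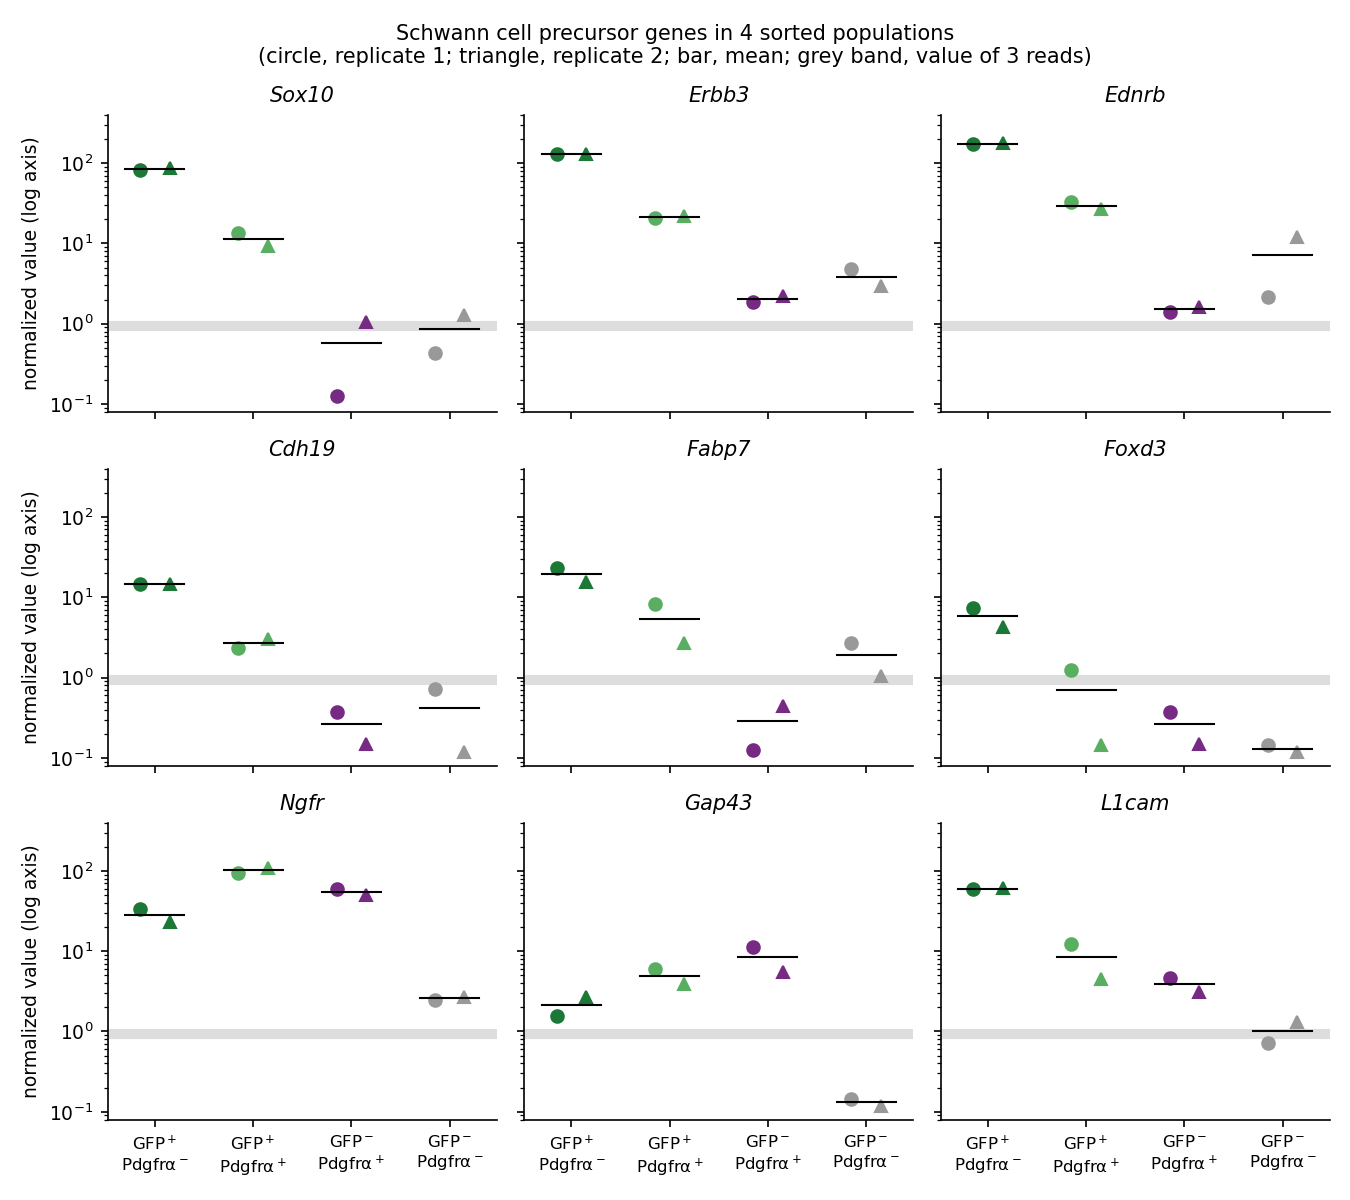
Normalized value (log axis) of each of the 9 genes in the 8 libraries of the 4 sorted populations. Circles are replicate 1, triangles replicate 2 and bars the mean, and the grey band is the value of 3 reads. In 7 panels the GFP+ Pdgfrα- libraries are the highest, and in the panels of *Ngfr* and *Gap43* the Pdgfrα+ libraries are.

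Over the 9 genes the median share of the GFP+ Pdgfrα- level found in GFP+ Pdgfrα+ cells was 16.9% (17.6% without *Foxd3*), against 98.6% over all 15880 genes. It was 18.8% from the libraries of replicate 1 and 17.0% from those of replicate 2. The shares fell into separate ranges. *Foxd3*, *Sox10*, *L1cam*, *Erbb3*, *Ednrb*, *Cdh19* and *Fabp7* had 11.9% to 27.9%, with a median of 16.3%, and *Gap43* and *Ngfr* had 229% and 358%. Among all genes, 2145 had a share below 50% and 7770 a share over 100%. *Sox10*, *Erbb3*, *Ednrb* and *Cdh19* had shares of 13.5% to 18.4%, and their intervals overlapped. The level in GFP- Pdgfrα+ cells was 1.57% of the GFP+ Pdgfrα- level for *Erbb3* and 0.862% for *Ednrb*, but 191% for *Ngfr* and 391% for *Gap43*.

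**Figure D2:**
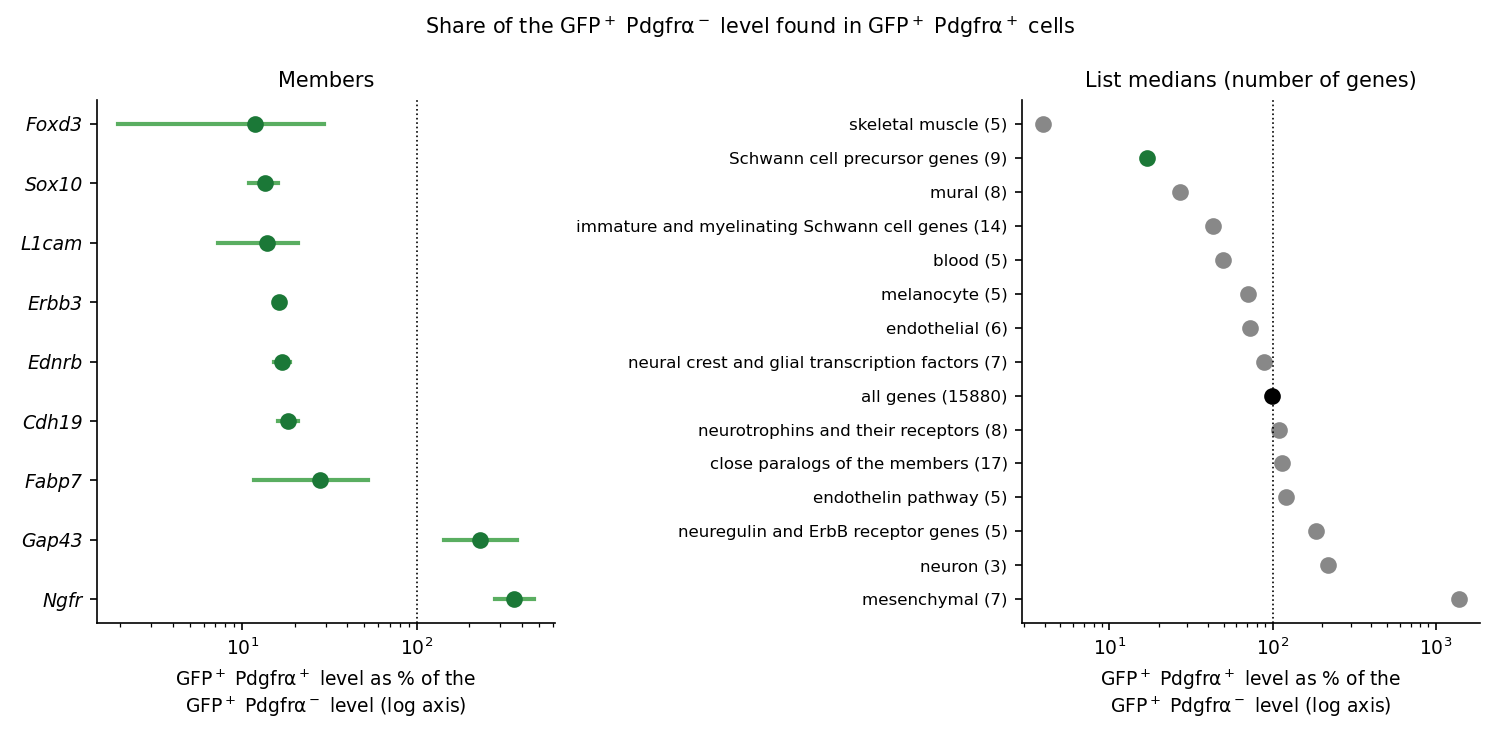
Level in GFP+ Pdgfrα+ cells as a percentage of the level in GFP+ Pdgfrα- cells (log axis). On the left, points are the ratio of mean values of each gene and lines run from the lowest to the highest of the 4 ratios of single libraries. On the right, points are medians over the genes of each list, with 16.9% for the Schwann cell precursor genes and 98.6% for all genes, and dotted lines mark 100%.

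Compared with GFP- Pdgfrα- cells, all 9 genes, and all 8 without *Foxd3*, were higher in GFP+ Pdgfrα- cells (30.1% of all genes were called higher and 23.6% lower). *Sox10* was 97.8-fold higher (exact 95% interval from the reads 49.6 to 297), *L1cam* 59.7-fold, *Erbb3* 34.2-fold and *Ednrb* 24.5-fold. *Ngfr* was 11.0-fold and *Fabp7* 10.3-fold higher. *Cdh19*, with 2 reads in GFP- Pdgfrα- cells, was 35.0-fold higher (15.1 to 467). Several of these folds depended on a single GFP- Pdgfrα- library. That of *Ednrb* was 14.4 without replicate 1 and 81.4 without replicate 2, and that of *Sox10* was 65.1 and 196. *Fabp7* was 18.4-fold higher without replicate 1, and *Cdh19* was 20.3-fold higher without replicate 2 and at least 17.7-fold without replicate 1, which held both reads. *Foxd3* and *Gap43* had 0 reads in GFP- Pdgfrα- cells and were at least 6.36-fold and at least 2.34-fold higher. The median log2 difference was 3.49, also with these genes at their bounds, and 4.13 without *Foxd3*, against 0.15 over all genes. The log2 difference of *Gap43*, 1.45 (adjusted p = 0.0141, limma), was not called after quantile normalization (1.05, adjusted p = 0.0596), without either GFP- Pdgfrα- library (adjusted p = 0.0522 without replicate 1 and 0.0576 without replicate 2) or without replicate 2 of the GFP+ Pdgfrα- cells (1.19, adjusted p = 0.105), with a range over the alternatives of 0.000960 to 0.105. Without a pseudocount the log2 difference rose from 3.49 to 5.65 for *Cdh19*, from 2.55 to 5.43 for *Foxd3* and from 1.45 to 3.99 for *Gap43*. Scaling moved the median of all genes here by -0.30 with quantile normalization and by -0.17 with centring on library medians, and the log2 difference of every member stayed above 0 under both.

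Compared with GFP- Pdgfrα+ cells, 7 of the 9, or 6 of the 8 without *Foxd3*, were higher in GFP+ Pdgfrα- cells (13.5% of all genes) and 2 were lower (14.3% of all genes). The genes that were higher included *Ednrb*, 116-fold (exact 95% interval 69.6 to 268), *Erbb3*, 63.8-fold (40.8 to 126), and *L1cam*, 15.5-fold (10.7 to 23.9). *Sox10* had 3 reads in GFP- Pdgfrα+ cells and was 145-fold higher (70.2 to 1002), and leaving out replicate 1 or replicate 2 of the GFP- Pdgfrα+ cells gave 81.3-fold and at least 95.7-fold. *Fabp7*, *Cdh19* and *Foxd3* had 1 read each there, and their ratios of 68.2 (25.3 to 5680), 55.5 (18.7 to 4233) and 22.1 (7.19 to 1700) have no useful upper limit. Without the GFP- Pdgfrα+ library that held the read, they were at least 22.1, 14.1 and 5.60, and without the other GFP- Pdgfrα+ library *Fabp7* was at 43.8. The log2 differences of these genes were 3.98, 3.63 and 2.40, and 6.33, 5.95 and 4.56 with a pseudocount of 0. The genes that were lower were *Ngfr*, 1.91-fold, and *Gap43*, 3.91-fold. *Ngfr* (log2 -0.93, adjusted p = 0.0108, limma) was not called without replicate 1 of the GFP- Pdgfrα+ cells (-0.80, adjusted p = 0.102) or replicate 2 of the GFP+ Pdgfrα- cells (-0.67, adjusted p = 0.109), with a range over the alternatives of 0.00387 to 0.109. *Gap43* (log2 -1.53, adjusted p = 0.0208, limma) was not called with a pseudocount of 0.1 or 0 (adjusted p = 0.0584 and 0.0808), without replicate 1 of the GFP- Pdgfrα+ cells (-1.07 or 2.57-fold, adjusted p = 0.168) or of the GFP+ Pdgfrα- cells (-1.27, adjusted p = 0.152), with a range of 0.0133 to 0.168. Its log2 difference between the libraries of replicate 2 alone was -0.81.

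GFP+ Pdgfrα+ cells held more RNA of 6 of the 9 genes than GFP- Pdgfrα+ cells, in a comparison where 3.22% of all genes were called higher and 2.13% lower. *Erbb3*, *Sox10* and *Ednrb* were the clearest of them. *Erbb3* was 10.4-fold higher (exact 95% interval 6.44 to 20.9; log2 2.88, adjusted p = 0.000166, limma) and *Ednrb* 19.6-fold (11.6 to 45.9; log2 3.61, adjusted p = 0.00133, limma). *Sox10* was 19.5-fold higher (9.09 to 136; log2 3.01, adjusted p = 0.00140, limma), and 4.95 on the log2 scale with a pseudocount of 0. Without replicate 1 of the GFP- Pdgfrα+ cells it was 10.9-fold higher, and without replicate 2 at least 12.9-fold. The calls of *Fabp7*, *Cdh19* and *Ngfr* depended on the fit. *Fabp7* (38 reads against 1; log2 2.20, adjusted p = 0.0252, limma) was not called when any 1 of 5 libraries was left out. These were both GFP- Pdgfrα+ libraries (adjusted p = 0.179 and 0.115), both GFP+ Pdgfrα- libraries (0.0567 and 0.0569) and replicate 1 of the GFP+ Pdgfrα+ cells, where it was 1.55 (0.168). It was also not called without the mean-variance trend (0.0615) or with only these populations in the fit (0.0603), with a range of 0.0107 to 0.179. Between the libraries of replicate 2 alone its log2 difference was 1.37, and with a pseudocount of 0 it was 4.32. *Cdh19* (18 reads against 1; log2 1.54, adjusted p = 0.0424, limma) was not called without any 1 of the 6 libraries of GFP+ Pdgfrα-, GFP+ Pdgfrα+ and GFP- Pdgfrα+ cells, nor in 6 further alternatives, over a range of 0.0288 to 0.220, and was 3.49 with a pseudocount of 0. *Ngfr*, 1.88-fold higher (log2 0.90, adjusted p = 0.0471, limma), was likewise not called without any 1 of these 6 libraries, nor in 6 further alternatives, over a range of 0.00619 to 0.291. *L1cam* (log2 0.82, adjusted p = 0.351), *Foxd3* (0.35, 0.732) and *Gap43* (-0.61, 0.510) were not called in limma, and *Foxd3* turned to -0.14 without replicate 1 of the GFP+ Pdgfrα+ cells. Between the libraries of replicate 2 alone it was -0.01.

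Compared with GFP- Pdgfrα- cells, 7 of the 9 genes were higher in GFP+ Pdgfrα+ cells (32.9% of all genes were called higher and 26.4% lower). *Ngfr* led with 39.6-fold (exact 95% interval 26.3 to 69.1), followed by *Sox10* with 13.2-fold (6.38 to 40.7), *L1cam* with 8.31-fold (4.18 to 23.8), *Erbb3* with 5.58-fold (3.90 to 9.12) and *Ednrb* with 4.15-fold (2.93 to 5.36). *Gap43* was at least 5.36-fold higher. Leaving out replicate 1 or replicate 2 of the GFP- Pdgfrα- cells gave folds of 2.44 and 13.8 for *Ednrb* and of 8.77 and 26.4 for *Sox10*, and leaving out replicate 1 of the GFP+ Pdgfrα+ cells gave 4.42 for *L1cam*. *Cdh19* (log2 1.40, adjusted p = 0.00838, limma) was not called after quantile normalization (0.79, adjusted p = 0.116) or without replicate 2 of the GFP- Pdgfrα- cells (1.09, adjusted p = 0.0852), with a range of 0.00304 to 0.116. *Fabp7* (log2 1.08, adjusted p = 0.0842, limma) was called without replicate 2 of the GFP+ Pdgfrα+ cells (1.72, adjusted p = 0.0188; range 0.0188 to 0.621), and *Foxd3* was not called (0.50, adjusted p = 0.331, limma). The log2 difference of *Ednrb* was 2.24, and 1.21 without replicate 1 of the GFP- Pdgfrα- cells. That of *L1cam* fell to 1.40 after quantile normalization and was called there as well (adjusted p = 0.0182, limma). With a pseudocount of 0 those of *Cdh19* and *Gap43* were 3.19 and 5.21, against 1.40 and 2.36. The median of all genes moved by -0.36 with quantile normalization and by -0.21 with centring.

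Between the GFP- populations, 3 of the 9 genes were higher in GFP- Pdgfrα+ cells (32.9% of all genes were called higher) and 1 was lower (26.8% of all genes were called lower). With quantile normalization 2 were higher and 3 lower, and with centring 3 were higher and 3 lower. *Ngfr* was 21.1-fold higher (exact 95% interval 14.0 to 37.2) and *Gap43* at least 9.13-fold (6.00 without replicate 1 of the GFP- Pdgfrα+ cells). *L1cam* was 3.86-fold higher (1.80 to 11.4; log2 1.28, adjusted p = 0.0227, limma), and it was not called after quantile normalization (0.61, adjusted p = 0.257), with voom (adjusted p = 0.0604), without replicate 1 of the GFP- Pdgfrα- cells (adjusted p = 0.101) or without replicate 1 of the GFP- Pdgfrα+ cells (adjusted p = 0.135), with a range of 0.00764 to 0.257. Its log2 difference was 0.84 between the libraries of replicate 2 alone and 1.98 with a pseudocount of 0, which took that of *Gap43* from 2.98 to 5.91. *Ednrb* was lower (log2 -1.36, adjusted p = 0.0310, limma), and this rested on replicate 2 of the GFP- Pdgfrα- cells. Without that library it was -0.33 (adjusted p = 0.391), without the other GFP- Pdgfrα- library it was -2.39 (adjusted p = 1.95e-05), and it was not called in 7 further alternatives (range 1.95e-05 to 0.391). *Erbb3* (-0.64, adjusted p = 0.0704, limma) and *Fabp7* (-1.12, adjusted p = 0.0730, limma) were not called, but they were called lower in 6 and 9 alternatives, with ranges of 0.00217 to 0.343 and 0.0143 to 0.364. *Sox10*, *Cdh19* and *Foxd3* were not called, and a left-out library or another scaling turned the sign of each. The median of all genes moved by -0.33 with quantile normalization and by -0.18 with centring.

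The difference between GFP+ and GFP- cells was smaller, or turned, among Pdgfrα+ cells for 7 of the 9 genes, or 6 of the 8 without *Foxd3*. This was tested as the interaction of GFP with Pdgfrα, the GFP difference in Pdgfrα+ cells minus that in Pdgfrα- cells, for which 25.2% of all genes were called lower and 19.1% higher. *L1cam* had the lowest value at -4.12 (standard error 0.61, adjusted p = 0.000184, limma), followed by *Sox10* at -2.55, *Foxd3* at -2.21, *Ngfr* at -2.12, *Gap43* at -2.06, *Cdh19* at -1.95 and *Erbb3* at -1.92. The median over the 9 genes was -2.06, against -0.16 over all genes, which moved by 0.25 with quantile normalization and by 0.15 with centring. Some other lists moved the same way. The interaction was called lower for 8 of 8 mural genes (median -3.37) and 5 of 5 skeletal muscle genes (-4.06). It was called lower as well for 7 of 7 neural crest and glial transcription factors (-3.08) and 6 of 8 neurotrophin and receptor genes (-2.30). The first of these lists holds *Pax3* and the second *Bdnf* and *Ntf3*. Like *Foxd3*, these genes had values over 2 only in the GFP+ Pdgfrα- libraries, so their part in these counts is a description. Other lists did not move this way. It was called higher for 3 of 5 blood genes and lower for 0 (3.09). Of 6 endothelial genes, 1 was higher and 1 lower (1.42), and of 5 melanocyte genes 1 was higher and 0 lower (-0.80). The 14 immature and myelinating Schwann cell genes had 2 higher and 8 lower (-1.50), and *Gfra3* and *Mag* among the 14 were over 2 only in the GFP+ Pdgfrα- libraries. The part of these cell types in the values of the 9 genes was not tested. *Ednrb* was not called (-1.17, adjusted p = 0.197, limma), and without replicate 2 of the GFP- Pdgfrα- cells it was called at -2.20 (adjusted p = 0.000897; range 0.000897 to 0.981). *Fabp7* was not called (-0.66, adjusted p = 0.482, limma) and turned its sign in 4 other fits and, to 0.31, between the libraries of replicate 1 alone. On scales with little or no pseudocount several calls were lost. *Sox10* was not called with a pseudocount of 0.1 or 0 (-2.14 and -1.87, adjusted p = 0.134 and 0.279). Nor was it called on the recovered reads with voom (-1.76, 0.279) or edgeR (-1.97, 0.252), over a range of 0.00289 to 0.279. *Cdh19* lost its call in the same 4 alternatives, with values of -2.12, -2.16, -2.24 and -1.63 in this order. Its call was also lost without replicate 2 of the GFP- Pdgfrα- cells (-1.64), over a range of adjusted p-values of 0.00544 to 0.603. *Foxd3* was not called with edgeR (-5.59, adjusted p = 0.182; range 0.00398 to 0.182), and *Gap43* was not called without replicate 1 of the GFP- Pdgfrα+ cells (-1.61, adjusted p = 0.0711), replicate 2 of the GFP+ Pdgfrα- cells (-1.80, 0.0707) or replicate 2 of the GFP+ Pdgfrα+ cells (-1.81, 0.0521), over a range of 0.00424 to 0.0711. With a pseudocount of 0 *Gap43* was at -4.70 and *Foxd3* at -4.59.

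The order of the populations differed between the genes. By mean level, *Ednrb*, *Sox10*, *Erbb3*, *Cdh19* and *Fabp7* fell from GFP+ Pdgfrα- through GFP+ Pdgfrα+ and GFP- Pdgfrα- to GFP- Pdgfrα+ cells. The steps from GFP+ Pdgfrα- to GFP+ Pdgfrα+ cells were called for these 5 genes, and those from GFP+ Pdgfrα+ to GFP- Pdgfrα- cells for all of them but *Fabp7*. The step from GFP- Pdgfrα- to GFP- Pdgfrα+ cells was called for *Ednrb* (adjusted p = 0.0310, limma), but not without replicate 2 of the GFP- Pdgfrα- cells (-0.33, adjusted p = 0.391; range 1.95e-05 to 0.391) or in 7 further alternatives, and it was not called for the others. *L1cam* fell from GFP+ Pdgfrα- to GFP+ Pdgfrα+ cells, did not differ between GFP+ Pdgfrα+ and GFP- Pdgfrα+ cells beyond the spread, and was lower again in GFP- Pdgfrα- cells. For *Foxd3*, which passed the filter through GFP+ Pdgfrα- cells alone, the levels fell from GFP+ Pdgfrα- through GFP+ Pdgfrα+ and GFP- Pdgfrα+ to GFP- Pdgfrα- cells, and the later steps were not called. The order for *Ngfr* was GFP+ Pdgfrα+, GFP- Pdgfrα+, GFP+ Pdgfrα- and GFP- Pdgfrα- cells, and each step was called, but only the last was called in every alternative. Its first step (adjusted p = 0.0471, limma) was lost without any 1 of the 6 libraries of GFP+ Pdgfrα-, GFP+ Pdgfrα+ and GFP- Pdgfrα+ cells and in 6 further alternatives (range 0.00619 to 0.291). Its second step was lost without replicate 1 of the GFP- Pdgfrα+ cells (-0.80, adjusted p = 0.102) or replicate 2 of the GFP+ Pdgfrα- cells (-0.67, adjusted p = 0.109; range 0.00387 to 0.109). For *Gap43* the order was GFP- Pdgfrα+, GFP+ Pdgfrα+, GFP+ Pdgfrα- and GFP- Pdgfrα- cells, and among neighbours only GFP+ Pdgfrα- and GFP- Pdgfrα- cells differed. Calls lost in some alternatives, with the values given above for each comparison, were also the first steps of *Cdh19*, *Fabp7* and *Foxd3*, the second of *Cdh19* and the last of *L1cam* and *Gap43*.

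Levels of different genes were set side by side per 1000 bases of exon. The highest mean level per 1000 bases in GFP+ Pdgfrα- cells was that of *Ednrb*, at 43.4, followed by *Sox10* at 31.1, *Erbb3* at 21.8 and *Fabp7* at 15.6. *Ngfr* and *L1cam* were at 8.26 and 8.18, and *Cdh19*, *Foxd3* and *Gap43* at 4.78, 2.45 and 1.40. *Ngfr* had the highest level per 1000 bases in GFP+ Pdgfrα+ cells, at 29.6, and *Ednrb* was next at 7.35. *Fabp7* at 4.35, *Sox10* at 4.19, *Erbb3* at 3.56 and *Gap43* at 3.22 had close means, although *Fabp7* was at 6.52 and 2.18 in the single libraries, and they lay above *L1cam* at 1.14, *Cdh19* at 0.879 and *Foxd3* at 0.292. Only *Ngfr* at 15.8 and *Gap43* at 5.49 exceeded 1 per 1000 bases in GFP- Pdgfrα+ cells. In GFP- Pdgfrα- cells *Ednrb* at 1.77 and *Fabp7* at 1.52 exceeded it as means, but each in a single library (0.534 and 3.01 for *Ednrb*, 2.18 and 0.849 for *Fabp7*). These differences between genes were not tested.

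The profile of *Sox10* over the 8 libraries was compared with that of every other gene, by the root mean square distance between log2(value + 1) profiles centred on their mean. Ranked by this distance among all genes, *Erbb3* was number 3 (0.471) and *Ednrb* number 8 (0.562). *L1cam*, *Cdh19*, *Fabp7* and *Foxd3* ranked 60, 78, 102 and 333, and *Ngfr* and *Gap43* ranked 9664 and 12003. The 10 closest genes outside the group had distances of 0.285 to 0.631 and were *Arpp21*, *Sytl2*, *Pde1c*, *Acta2*, *Igsf11*, *Plxnb3*, *Bche*, *Dtna*, *Ttn* and *Sox8*. *Arpp21*, the closest, had values of 82.9 and 76.8 in GFP+ Pdgfrα- and 7.32 and 7.33 in GFP+ Pdgfrα+ cells. *Acta2* encodes smooth muscle actin and *Ttn* the titin of striated muscle, and their shares in GFP+ Pdgfrα+ cells were 9.93% and 10.9%. *Sox8*, a factor of the same SOX subgroup as *Sox10*, had a share of 7.95%.

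The partners of the receptors were described from lists of their pathways. For these and the later lists, 13.1% of all genes were called higher and 11.1% lower in GFP+ Pdgfrα+ cells between the GFP+ populations. Between the Pdgfrα- populations, 30.1% were called higher and 23.6% lower in GFP+ Pdgfrα- cells. ErbB3 signals in a pair with ErbB2, and neuregulins bind it. Of 7 neuregulin and ErbB receptor genes beside *Erbb3*, 5 were in the table, and *Nrg2* and *Nrg3* were not analysed here. Between the GFP+ populations 1 of the 5 was higher in GFP+ Pdgfrα+ cells, 0 were lower and 4 were not called. The gene that was higher was *Egfr* (log2 0.87, adjusted p = 0.00178, limma), the receptor of epidermal growth factor, with means of 278 in GFP+ Pdgfrα+ and 152 in GFP+ Pdgfrα- cells. *Erbb2* had values of 27.3 and 28.2 in GFP+ Pdgfrα- and 54.3 and 53.3 in GFP+ Pdgfrα+ cells, a log2 difference of 0.93 that was not called (adjusted p = 0.0859, limma). Thus *Erbb2* was at 194% and *Erbb3* at 16.3% of the GFP+ Pdgfrα- level in GFP+ Pdgfrα+ cells. *Nrg1*, the neuregulin of axons, had values of 0.121 and 0.386 in GFP+ Pdgfrα-, 1.52 and 0.144 in GFP+ Pdgfrα+, 2.65 and 2.52 in GFP- Pdgfrα+ and 0.144 and 0.118 in GFP- Pdgfrα- cells. Compared with GFP- Pdgfrα- cells, 3 of the 5 genes were higher in GFP+ Pdgfrα- cells and 2 were not called.

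EdnrB binds endothelins, which are released from precursors by converting enzymes. Of 6 other endothelin pathway genes 5 were in the table, and *Edn2* was not analysed here. Between the GFP+ populations 1 was higher in GFP+ Pdgfrα+ cells, 1 was lower and 3 were not called. *Edn3*, the ligand that acts with *Ednrb* in the neural crest, had values of 75.1 and 63.7 in GFP+ Pdgfrα-, 6.49 and 7.62 in GFP+ Pdgfrα+, 5.42 and 6.39 in GFP- Pdgfrα+ and 0.144 and 0.590 in GFP- Pdgfrα- cells. Its share in GFP+ Pdgfrα+ cells was 10.2% (log2 -3.13, adjusted p = 4.23e-05, limma). *Ednra*, the other endothelin receptor, was higher in GFP+ Pdgfrα+ cells, with means of 116 against 51.5 (log2 1.16, adjusted p = 0.00185, limma). The converting enzyme gene *Ece1* was not called between the GFP+ populations and was one of 3 genes, with *Edn3* and *Ednra*, that were higher in GFP+ Pdgfrα- cells when compared with GFP- Pdgfrα- cells.

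p75 works with the Trk receptors and with sortilin. Of 10 genes of neurotrophins, their other receptors and partners of p75, 8 were in the table, and *Ntf5*, which was not, was not analysed here. Of the 8, 2 were higher in GFP+ Pdgfrα+ cells, 2 were lower and 4 were not called. *Ntrk2*, the receptor of brain-derived neurotrophic factor, had values of 19.8 and 32.5 in GFP+ Pdgfrα-, 214 and 282 in GFP+ Pdgfrα+, 439 and 438 in GFP- Pdgfrα+ and 5.60 and 4.13 in GFP- Pdgfrα- cells. It was thus high in the same Pdgfrα+ libraries as *Ngfr*, at 948% of the GFP+ Pdgfrα- level in GFP+ Pdgfrα+ cells (log2 3.22, adjusted p = 1.98e-06, limma). *Ntrk3*, the receptor of neurotrophin 3, was also higher in GFP+ Pdgfrα+ cells, with means of 34.1 against 9.73 (log2 1.71, adjusted p = 0.00133, limma). The genes that were lower were the ligands *Bdnf* (means 1.27 against 6.88) and *Ntf3* (0.428 against 5.48). Like *Foxd3*, these ligands were over 2 only in the GFP+ Pdgfrα- libraries. Their differences from those cells are given as a description. Compared with GFP- Pdgfrα- cells, 7 of the 8 were higher in GFP+ Pdgfrα- cells (30.1% of all genes), among them *Sort1* and *Maged1*, and *Ngfrap1* was lower.

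Of 10 further transcription factors of the neural crest and glia, 7 were in the table, and *Sox2*, *Tfap2a* and *Tfap2b* were not analysed here. Of these 3 were lower in GFP+ Pdgfrα+ cells, 0 were higher and 4 were not called, with a median share of 88.0% (6.61% to 106%). *Sox8* had values of 162 and 142 in GFP+ Pdgfrα- cells against 12.8 and 11.4 in GFP+ Pdgfrα+ cells (log2 -3.55, adjusted p = 7.18e-06, limma). *Zeb2* was lower by less, with means of 719 and 470 (log2 -0.62, adjusted p = 0.00329, limma), and *Pax3* had means of 15.1 and 0.998. Like *Foxd3*, *Pax3* was over 2 only in the GFP+ Pdgfrα- libraries. Its differences from those cells are given as a description. *Snai2*, *Ets1* and *Etv1* were not called, with shares of 92.0%, 92.8% and 88.0%. All 7 were higher in GFP+ Pdgfrα- cells when compared with GFP- Pdgfrα- cells (30.1% of all genes).

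The 14 genes of immature and myelinating Schwann cells, the next stages of the lineage, were all in the table, and the study names some of them for these samples. Of these 8 were lower in GFP+ Pdgfrα+ cells, 0 were higher and 6 were not called. Their median share was 43.2%. Like *Foxd3*, *Gfra3* and *Mag* of this list were over 2 only in the GFP+ Pdgfrα- libraries. The differences of *Gfra3* and *Mag* from those cells are given as a description. *Mbp*, a myelin gene, had means of 43.4 in GFP+ Pdgfrα- and 12.0 in GFP+ Pdgfrα+ cells (log2 -2.01, adjusted p = 0.0159, limma), but its highest level was in GFP- Pdgfrα- cells, at 121 and 108. *Ncam1* was at 46.8% (log2 -1.10, adjusted p = 0.000560, limma), and *Pmp22* and *Egr2* were not called. *S100b*, a common marker of Schwann cells, had values of 4.73 and 2.44 in GFP+ Pdgfrα-, 9.80 and 10.2 in GFP+ Pdgfrα+, 6.93 and 16.2 in GFP- Pdgfrα+ and 1.58 and 1.06 in GFP- Pdgfrα- cells, and was not called (log2 1.31, adjusted p = 0.0533, limma). Against GFP- Pdgfrα- cells, 10 of the 14 genes were higher in GFP+ Pdgfrα- cells (30.1% of all genes), 2 were lower and 2 were not called.

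Close paralogs of the 9 genes did not share one direction. Of 18 such genes 17 were in the table, and *Cdh7* was not analysed here. Among these 5 were higher in GFP+ Pdgfrα+ cells (13.1% of all genes), 6 were lower (11.1% of all genes) and 6 were not called, and the median share was 113%. Beside *Sox10* (13.5%), *Sox8* was at 7.95% and *Sox9*, which was not called, at 106%. Beside *Ednrb* (16.9%), *Ednra* was at 224%. Beside *L1cam* (13.9%), *Chl1* was at 12.4%, with values of 46.3 and 45.1 in GFP+ Pdgfrα- and 4.56 and 6.76 in GFP+ Pdgfrα+ cells (log2 -2.83, adjusted p = 0.000792, limma). Against GFP- Pdgfrα- cells, 12 of the 17 were higher in GFP+ Pdgfrα- cells (30.1% of all genes) and 5 were not called. *Cdh20*, another of the 17, had reads only in the GFP+ Pdgfrα- libraries (5 and 6), so its differences from those cells are given as a description. *Nrg1*, *Bdnf*, *Ntf3*, *Pax3*, *Chl1*, *Prph*, *Gfra3*, *Mag* and *Cdh20* are named here after their values were seen. No called gene of the 13 lists turned its direction with quantile normalization or centring in any comparison. *Sox9*, at a log2 difference of 0.00 between the GFP+ populations, turned there under both. Exons of *Nrg1*, *Zeb2*, *Ednra*, *Ncam1*, *Sort1*, *Erbb2*, *Notch3*, *Col1a1* and *Des* overlap genes on the opposite strand, and reads of such pairs cannot be told apart where strand was not used.

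Markers of other cell types also differed between the GFP+ populations. Skeletal muscle genes were lower in GFP+ Pdgfrα+ cells in 5 of 5 cases (11.1% of all genes), and their summed value was 726 and 759 in GFP+ Pdgfrα-, 46.3 and 39.2 in GFP+ Pdgfrα+, 17.0 and 16.2 in GFP- Pdgfrα+ and 8.76 and 5.78 in GFP- Pdgfrα- cells. *Pax7*, the factor of muscle satellite cells, had the highest mean over the 8 libraries. Mural cell genes were lower in GFP+ Pdgfrα+ cells in 6 of 8 cases, with sums of 2340 and 3043 in GFP+ Pdgfrα-, 732 and 644 in GFP+ Pdgfrα+, 528 and 537 in GFP- Pdgfrα+ and 83.3 and 144 in GFP- Pdgfrα- cells. The 2 mural genes that were not called were *Cspg4* and *Pdgfrb*, with shares of 140% and 122%. *Rgs5* had the highest mean over the 8 libraries, but not the highest level of the list in either Pdgfrα+ population. The median share in GFP+ Pdgfrα+ cells was 3.92% for the muscle genes and 27.1% for the mural genes, on either side of the 16.9% of the Schwann cell precursor genes. Mesenchymal genes were higher in GFP+ Pdgfrα+ cells in 7 of 7 cases (13.1% of all genes), of which 1, *Pdgfra*, was fixed by the sort, with sums of 5651 and 4733 in GFP+ Pdgfrα-, 86430 and 65678 in GFP+ Pdgfrα+, 30269 and 27865 in GFP- Pdgfrα+ and 763 and 995 in GFP- Pdgfrα- cells, led in each library by *Col1a1*. The 9 Schwann cell precursor genes summed to 528 and 515 in GFP+ Pdgfrα-, 191 and 182 in GFP+ Pdgfrα+, 79.3 and 63.7 in GFP- Pdgfrα+ and 14.2 and 21.8 in GFP- Pdgfrα- cells. *Ednrb* had the highest mean over the 8 libraries, and *Ngfr* was the highest in all 4 Pdgfrα+ libraries. The part of these cell types in the levels of the 9 genes was not tested.

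Melanocytes share *Sox10* and *Ednrb* with glia. Of 7 melanocyte genes 5 were in the table, *Dct* and *Mlana* were not analysed here, and 1, *Kit*, was lower in GFP+ Pdgfrα+ cells. They summed to 27.3 and 21.2 in GFP+ Pdgfrα-, 14.8 and 18.8 in GFP+ Pdgfrα+, 17.3 and 22.7 in GFP- Pdgfrα+ and 353 and 275 in GFP- Pdgfrα- cells. *Kit*, which blood progenitors also express, had the highest mean over the 8 libraries. Of 9 neuron genes only 3 were in the table, and *Elavl3*, *Elavl4*, *Th*, *Snap25* and *Isl1* were not analysed here. The 3 summed to 1.34 and 0.643 in GFP+ Pdgfrα-, 4.83 and 2.16 in GFP+ Pdgfrα+, 8.19 and 8.76 in GFP- Pdgfrα+ and 0.431 and 0.825 in GFP- Pdgfrα- cells. *Stmn2* had the highest mean over the 8 libraries, but in the GFP+ populations the mean of *Tubb3* was higher. *Tubb3* was higher in GFP+ Pdgfrα+ cells, on 19 reads against 3 in GFP+ Pdgfrα- cells (means 2.80 and 0.489). As it was low and highest in GFP+ Pdgfrα+ cells, this difference is given as a description. *Prph* had 0 reads in both GFP+ Pdgfrα+ libraries. Endothelial genes, whose cells the CD31 gate should remove, were called in 0 of 6 cases between the GFP+ populations by limma. They summed to 45.9 and 93.4 in GFP+ Pdgfrα-, 48.6 and 72.7 in GFP+ Pdgfrα+, 49.4 and 51.4 in GFP- Pdgfrα+ and 31.6 and 121 in GFP- Pdgfrα- cells. *Tek* had the highest mean over the 8 libraries, but not the highest mean in GFP+ Pdgfrα+ or GFP- Pdgfrα- cells. Blood genes, whose cells the CD45 and Ter119 gates should remove, were lower in GFP+ Pdgfrα+ cells in 2 of 5 cases. They summed to 87.0 and 56.0 in GFP+ Pdgfrα-, 22.8 and 31.8 in GFP+ Pdgfrα+, 46.3 and 29.8 in GFP- Pdgfrα+ and 5920 and 11184 in GFP- Pdgfrα- cells, led in each library by *Hbb-b1*. Mitochondrial genes made up 36.9% and 39.1% of the GFP- Pdgfrα- libraries and 14.4% and 14.5% of the GFP- Pdgfrα+ libraries. The part of these differences in the levels of the 9 genes was not tested.

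**Figure D3:**
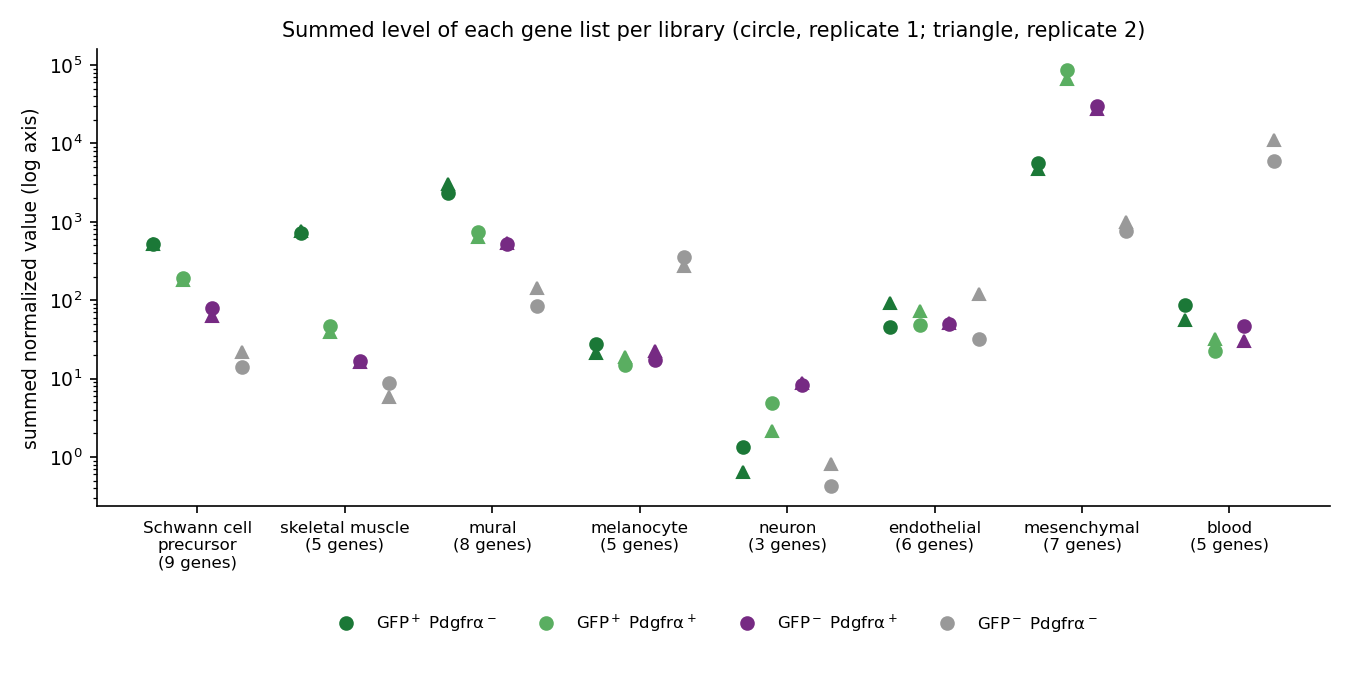
Summed normalized value (log axis) of the Schwann cell precursor genes and of 7 lists of markers of other cell types in each of the 8 libraries, with circles for replicate 1 and triangles for replicate 2. Sums of the Schwann cell precursor, skeletal muscle and mural genes are highest in both GFP+ Pdgfrα- libraries, mesenchymal sums in both GFP+ Pdgfrα+ libraries and blood sums in both GFP- Pdgfrα- libraries.

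Promoter windows of RefSeq (GRCm38.p6) were matched for 5 of the 9 genes, *Ednrb*, *Fabp7*, *Foxd3*, *L1cam* and *Ngfr*, and not for *Sox10*, *Erbb3*, *Cdh19* and *Gap43*. The 250 bases before each start listed there were searched on both strands for hexamers of the type that SOX factors bind, which were ACAAAG or, with another letter before the last, ACAATG, and the same beginning with T, TCAAAG or again TCAATG. At least 1 of these hexamers was in 39.4% of all 32851 windows, and it was in 1 of the 6 windows of the 5 genes. These windows need not lie outside the gene. The window of *Ednrb* and both windows of *L1cam* are inside the spans given above, before a start that is not the outermost, and 3 of the 6 windows hold 37 to 44 exon bases. The windows of *Ednrb*, the only one with a hexamer, and of *Foxd3*, a gene with the same direction in the GFP+ populations, are shown 5′ to 3′ as read from their own strand, at chr14:104242919-104243168 (minus) and chr4:99322740-99322989 (plus) of NCBIM37. Capitals mark the hexamer, TCAATG on the opposite strand, and the second sequence holds none.
Ednrb: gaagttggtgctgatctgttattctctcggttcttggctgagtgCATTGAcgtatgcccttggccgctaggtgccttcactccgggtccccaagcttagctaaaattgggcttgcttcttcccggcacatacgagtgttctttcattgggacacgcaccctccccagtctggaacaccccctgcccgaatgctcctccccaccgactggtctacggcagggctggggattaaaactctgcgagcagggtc
Foxd3: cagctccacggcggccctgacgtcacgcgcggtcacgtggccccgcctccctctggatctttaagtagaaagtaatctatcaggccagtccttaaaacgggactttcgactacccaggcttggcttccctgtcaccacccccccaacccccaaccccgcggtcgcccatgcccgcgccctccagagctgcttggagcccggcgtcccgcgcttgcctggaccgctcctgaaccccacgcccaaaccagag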

How the data were processed

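RNA-seq of 4 sorted stromal populations was analysed, with 2 libraries each. The authors trimmed reads with cutadapt, quantified them with RSEM 1.17 on NCBIM37 and normalized them with voom, and the deposited unit is normalized signal, not in log2. Whole reads were recovered from 100% of the values (within 0.1 read). Coordinates are from GENCODE M1, which matched 15849 of 15880 identifiers. The median library had 3604130 reads.

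Log2(value + 1) was fitted with limma 3.58.1 (R 4.3.3; lmFit, eBayes with trend), 1 coefficient per population over 8 libraries, with 4 residual degrees of freedom and Benjamini–Hochberg adjustment over 15880 genes. Tests had been written down for more than 1 unit, and that for normalized values applied. A share is the ratio of mean values, with exact (Clopper–Pearson) intervals from the reads. The members and gene lists were chosen with earlier results of these data known. Named are the 9 members and the most abundant marker of each cell type. Up to 5 genes of each list are named that were called between the GFP+ populations or the Pdgfrα- populations (highest mean first). *Pdgfra*, *Nes* and the 10 genes most like *Sox10* are named too. Further genes outside this rule were chosen after their values were seen.

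Alternatives were the replicate block, only the compared populations, no trend, library weights, quantile normalization, centring, a filter on low values (14333 genes), pseudocounts of 0.1 and 0, voom and edgeR on recovered reads, thresholds of 0.01 and 0.10, and leaving out each library. Chosen after seeing the data were leaving out both GFP- Pdgfrα- libraries and counting the members without *Foxd3*, which passed the filter on low values through 1 population alone. EdgeR 4.0.16 (quasi-likelihood, common biological coefficient of variation 0.188) on the recovered reads called 3586 genes between the GFP+ populations, 8415 between the Pdgfrα- populations, 4182 for GFP+ Pdgfrα- against GFP- Pdgfrα+ cells, 893 between the Pdgfrα+ populations, 9240 for GFP+ Pdgfrα+ against GFP- Pdgfrα- cells, 9281 between the GFP- populations and 6644 for the interaction. As pups of a litter were pooled, libraries with the same replicate number were taken to share a pool. Their deviations from the population means had correlations of 0.00433 to 0.0812 over all genes. Python 3.11.15 was used with scipy 1.17.1, pandas 2.3.3, numpy 2.4.6 and, for the figures, matplotlib 3.10.9.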

Additional observations from a re-analysis of the deposited data

Results flagged for a closer look

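The difference between GFP+ and GFP- cells was not the same among Pdgfrα+ cells as among Pdgfrα- cells for 7 of the 9 genes, by limma's test of the interaction itself, and this brought them here. Without *Foxd3*, which passed the filter on low values through GFP+ Pdgfrα- cells alone, these were 6 of 8 genes. The interaction, the GFP difference in Pdgfrα+ cells minus that in Pdgfrα- cells, was -2.55 on the log2 scale for *Sox10*, -1.92 for *Erbb3*, -1.95 for *Cdh19*, -2.21 for *Foxd3*, -2.12 for *Ngfr*, -2.06 for *Gap43* and -4.12 for *L1cam*. Over all genes, 25.2% were called lower and 19.1% higher by the same test. Against a median of -2.06 for the 9 genes, it was -3.37 for mural genes (8 of 8 called lower) and -4.06 for skeletal muscle genes (5 of 5). It was -3.08 for neural crest and glial transcription factors (7 of 7). *Pax3* among these was, like *Foxd3*, over 2 only in the GFP+ Pdgfrα- libraries, so its call is a description. Blood genes went the other way at 3.09 (3 of 5 called higher, 0 lower), and endothelial genes were at 1.42 (1 of 6 higher, 1 lower). Melanocyte genes were at -0.80 (1 of 5 higher, 0 lower). The calls of 4 of the 7 Schwann cell precursor genes were lost under some alternatives. *Sox10* was not called with a pseudocount of 0.1 or 0 (-2.14 and -1.87, adjusted p = 0.134 and 0.279). Nor was it called with voom (-1.76, 0.279) or edgeR (-1.97, 0.252), over a range of 0.00289 to 0.279. *Cdh19* lost its call in the same 4 alternatives, at -2.12, -2.16, -2.24 and -1.63 in this order. Without replicate 2 of the GFP- Pdgfrα- cells its call was also lost (-1.64), over a range of adjusted p-values of 0.00544 to 0.603. *Foxd3* was not called with edgeR (adjusted p = 0.182; range 0.00398 to 0.182). *Gap43* was not called without replicate 1 of the GFP- Pdgfrα+ cells (adjusted p = 0.0711), replicate 2 of the GFP+ Pdgfrα- cells (0.0707) or replicate 2 of the GFP+ Pdgfrα+ cells (0.0521), over a range of 0.00424 to 0.0711. The causes were not tested.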

How the results depend on the processing

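Of the log2 differences of single members that were tested under the alternatives, 1113 kept their direction and side of the threshold, 75 lost the call, 17 gained it and 10 changed sign. Of 126 differences between libraries of a single replicate number, which carry no test, 123 kept their sign and 3 turned. Between the GFP+ populations 8 members were called, and 7 to 8 when a library was left out. The fit with the replicate block called 3925 genes there and changed the call of no member in any comparison. Leaving out both GFP- Pdgfrα- libraries, which was chosen after seeing the data, gave 8 members and 4049 genes between the GFP+ populations, 9 and 4615 for GFP+ Pdgfrα- against GFP- Pdgfrα+ cells, and 6 and 1126 between the Pdgfrα+ populations. Where a population has a single library left, it is assumed to vary like the others. Members near the floor are limited by depth.

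Sign changes in the tested differences were those of *Foxd3* between the Pdgfrα+ populations (-0.14 without replicate 1 of GFP+ Pdgfrα+ cells), and between the GFP- populations of *Sox10* (0.08 without replicate 2 of GFP- Pdgfrα- cells, 0.17 without replicate 1 of GFP- Pdgfrα+ cells; -0.69 to 0.17 with a library left out), *Cdh19* (0.17 without replicate 1 of GFP- Pdgfrα- cells; -0.45 to 0.17 with a library left out) and *Foxd3* (-0.11 with quantile normalization, -0.0283 with centring). The interaction of *Fabp7* turned to 0.38 and 0.83 with pseudocounts of 0.1 and 0, 0.81 with voom and 1.56 with edgeR. In libraries of a single replicate number, the turned differences, none of them called, were *Foxd3* between the Pdgfrα+ populations (-0.01) and *Cdh19* between the GFP- populations (0.04) in replicate 2, and the interaction of *Fabp7* (0.31) in replicate 1. The cause was not tested.

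With the threshold at 0.01, 2220 genes were called between the GFP+ populations in place of 3848, 2805 for GFP+ Pdgfrα- against GFP- Pdgfrα+ cells in place of 4427, and 361 between the Pdgfrα+ populations in place of 849 (1356 at 0.10, 532 without the trend, 514 with a pseudocount of 0). Members called at 0.01 were 3 between the Pdgfrα+ populations in place of 6, 2 between the GFP- populations in place of 4 (7685 of all genes in place of 9476), and 4 for the interaction in place of 7 (5000 of all genes in place of 7031). Voom called 2 members between the GFP- populations, and edgeR 4 for the interaction. With a library left out, counts of genes were 2158 to 4056, 2757 to 4642 and 246 to 1083 in the first 3 of these comparisons. Counts of members were 3 to 6 between the Pdgfrα+ populations and 2 to 5 between the GFP- populations, and the median share was 15.2% to 20.4%. The cause was not tested beyond the stricter threshold and the smaller number of libraries.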
